A study of Mus musculus with 3 samples.

Results

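Narrow, strong EZH2 sites at the ends of genes are described here in mouse bone marrow-derived macrophages. Bone marrow cells of adult C57BL/6 mice were grown for 5 days with M-CSF, the growth factor that turns marrow progenitors into macrophages. They were then left without treatment (NT) or given LPS, the endotoxin of bacterial cell walls that Toll-like receptor 4 senses, for 2 h. Chromatin immunoprecipitation and sequencing (ChIP-seq) with an EZH2 antibody gave 1 library per condition, and a library of input DNA entered no comparison. No genetic change is named for any group, and the labels do not say how many mice gave the cells. The sites are regions of the authors' list of merged EZH2 regions that meet an EZH2 interval of both libraries, are under 2000 bp wide, have an NT summit value of 40 or more, and have their midpoint at most 2.5 kb from either annotated end of a protein-coding gene. They were 266 of 9785 merged regions, and 266 of the 4027 that met an interval of both libraries. The members were chosen by their NT value, width and position, so these 3 properties describe the selection and are not results.

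EZH2 is the catalytic subunit of polycomb repressive complex 2 (PRC2), which places methyl groups on lysine 27 of histone H3. In mammals PRC2 gathers at CpG islands, stretches of DNA rich in unmethylated CG dinucleotides that cover many gene starts. Its best known sites are wide domains over silent developmental genes, such as those for homeobox transcription factors, and EZH2 signal can also appear as a narrow peak at a single gene start. Transcription and histone methylation were not measured in the data used here.

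The summit value is the authors' whole-number score at the top of an interval, and its unit and scaling are not given in the sources used here. It ran from 11 to 253 over 9643 NT intervals (median 27) and from 7 to 100 over 4651 LPS intervals (median 16). Depth is unknown for both libraries, so a lower LPS value need not mean that less EZH2 was bound. Comparisons were therefore made between sets of regions within the same pair of libraries. A single library per condition allows no test between NT and LPS, and no value has a replicate error. Intervals given for shares are Wilson intervals and those for medians are order-statistic intervals, both at 95%. They treat regions as independent, which neighbouring regions are not, and cover the sampling of regions only. The track of the stimulated cells is named TLR and was taken as the LPS library, the one stimulated EZH2 sample.

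The gene starts below show what kind of DNA lies under these sites. They are the RefSeq promoters (GRCm38.p6, the assembly of mm10; 250 bases before to 50 after the start, 5′ to 3′ on the gene's strand) of the 3 regions with the highest NT value that hold a listed start, of the regions with the highest and the lowest ratio of LPS to NT value that hold one, and of the highest region between 2 genes that face away from each other. Regions without such a start, those at Smarce1, Tead1 and Paqr9, were passed over for the next in order. Capitals mark matches on either strand to the GC box GGGCGG, which Sp1 and Kruppel-like factors bind, to the CCAAT box of factor NF-Y, and to the TATA box TATAAA.
Setd1a (chr7:127777139-127777438, plus strand, NT 162 and LPS 70): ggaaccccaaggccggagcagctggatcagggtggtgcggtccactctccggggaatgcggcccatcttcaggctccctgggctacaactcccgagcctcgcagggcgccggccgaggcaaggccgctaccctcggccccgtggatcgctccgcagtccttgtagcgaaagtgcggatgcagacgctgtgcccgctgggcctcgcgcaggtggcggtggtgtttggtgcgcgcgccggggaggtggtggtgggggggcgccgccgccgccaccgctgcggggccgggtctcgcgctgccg
Itprip (chr19:47919274-47919573, minus strand, NT 96 and LPS 41): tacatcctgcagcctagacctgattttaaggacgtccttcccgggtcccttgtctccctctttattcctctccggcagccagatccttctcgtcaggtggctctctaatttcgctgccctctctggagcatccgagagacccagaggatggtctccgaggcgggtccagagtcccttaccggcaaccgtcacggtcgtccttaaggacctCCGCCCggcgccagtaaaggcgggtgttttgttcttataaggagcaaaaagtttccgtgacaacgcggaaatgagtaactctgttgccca
Osbp (chr19:11965594-11965893, plus strand, NT 95 and LPS 53): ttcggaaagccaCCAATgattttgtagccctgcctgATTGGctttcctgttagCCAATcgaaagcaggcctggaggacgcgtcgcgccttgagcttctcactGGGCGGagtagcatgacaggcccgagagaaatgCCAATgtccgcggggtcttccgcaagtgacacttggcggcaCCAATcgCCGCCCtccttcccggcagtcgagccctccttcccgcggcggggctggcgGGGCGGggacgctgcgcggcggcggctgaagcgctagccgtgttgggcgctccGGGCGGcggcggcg
Plekhh1 (chr12:79028913-79029212, plus strand, NT 42 and LPS 28): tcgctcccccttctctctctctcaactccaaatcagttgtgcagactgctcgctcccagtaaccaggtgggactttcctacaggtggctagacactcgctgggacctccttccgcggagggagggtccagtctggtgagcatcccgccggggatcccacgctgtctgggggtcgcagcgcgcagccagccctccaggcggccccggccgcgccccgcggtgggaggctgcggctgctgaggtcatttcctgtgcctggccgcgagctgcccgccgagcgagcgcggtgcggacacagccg
Elf1 (chr14:79480944-79481243, plus strand, NT 52 and LPS 8): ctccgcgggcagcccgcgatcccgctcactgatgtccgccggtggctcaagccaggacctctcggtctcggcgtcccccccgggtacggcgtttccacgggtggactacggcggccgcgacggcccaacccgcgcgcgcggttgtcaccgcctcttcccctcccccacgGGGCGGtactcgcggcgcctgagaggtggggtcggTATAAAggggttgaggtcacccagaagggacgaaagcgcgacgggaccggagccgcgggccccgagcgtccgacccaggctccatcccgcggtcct
Mis12 (chr11:71019361-71019660, plus strand, NT 62 and LPS 25): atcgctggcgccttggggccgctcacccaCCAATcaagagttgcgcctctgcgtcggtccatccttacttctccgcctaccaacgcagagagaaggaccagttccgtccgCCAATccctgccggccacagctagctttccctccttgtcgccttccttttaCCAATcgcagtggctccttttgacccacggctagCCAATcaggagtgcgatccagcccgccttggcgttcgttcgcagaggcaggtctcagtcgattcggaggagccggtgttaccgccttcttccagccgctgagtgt

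These promoters differed in CpG content and in the 3 motifs marked. Setd1a had 35 CpG in 300 bases and a GC content of 73.7%, Elf1 had 43 CpG and 73%, Osbp had 34 and 67%, Plekhh1 had 27 and 69%, Mis12 had 24 and 60.7%, and Itprip had 19 and 55.7%. Osbp carried 5 CCAAT boxes and 4 GC boxes, and Mis12 carried 4 CCAAT boxes. Counted from the start, Elf1 carried a GC box at -81 and a TATA box at -46, and Itprip a GC box at -40. Setd1a and Plekhh1 held none of these 3 motifs. A match describes letters only and is no evidence that a factor binds.

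The 10 members with the highest NT value, with predicted genes passed over, lay at genes of mixed function, and the 3 at chromatin regulators come first. The member passed over was at the predicted gene Gm46866 (79 in NT and 38 in LPS), and it also held the start of Glis1. At Setd1a, an enzyme that methylates lysine 4 of histone H3, the region chr7:127776138-127777815 had a summit value of 162 in NT and 70 in LPS. At Smarce1, a subunit of the BAF chromatin remodelling complex, chr11:99229684-99231356 had 100 in NT and 47 in LPS, and at Brpf1, a scaffold of MOZ histone acetyltransferase complexes, the values were 84 and 49. Both libraries therefore had high values at these chromatin genes, and the NT value was the higher one at each.

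The remaining regions among these 10 were of the same order. Itprip, which encodes a protein that binds the inositol trisphosphate receptor, had 96 in NT and 41 in LPS at chr19:47918538-47920140. Osbp, an oxysterol-binding lipid transfer protein, had 95 and 53 at chr19:11964891-11966270, and Armc8, a subunit of a ubiquitin ligase complex, had 90 and 36. The next were Nlk, a kinase that acts on Wnt signalling, with 87 and 27, a region at Tcte2 and Afdn with 87 and 44, the stress granule gene G3bp1 with 84 and 42, and the early endosome GTPase gene Rab5b with 76 and 40. The Rab5b region also lay in reach of Cdk2 and Pmel. Among these 10 regions the ratio of LPS to NT value ran from 0.31 at Nlk to 0.583 at Brpf1.

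Most members were far weaker than these. NT values ran from 40 to 162 with a median of 47, and 165 of the 266 lay between 40 and 49, just over the limit the rule set. Only 9 had an NT value of 80 or more, against 111 of the 229 regions of 5 kb or more chosen by the same NT limit at gene ends. LPS values, on which the rule set no limit beyond the presence of an interval, ran from 8 to 70 with a median of 19 (18 to 20). Widths ran from 902 to 1997 bp with a median of 1534.5 bp, and each of the 266 regions held exactly 1 interval of each library. The LPS interval covered a median of 80.9% of the region.

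**Figure D1:**
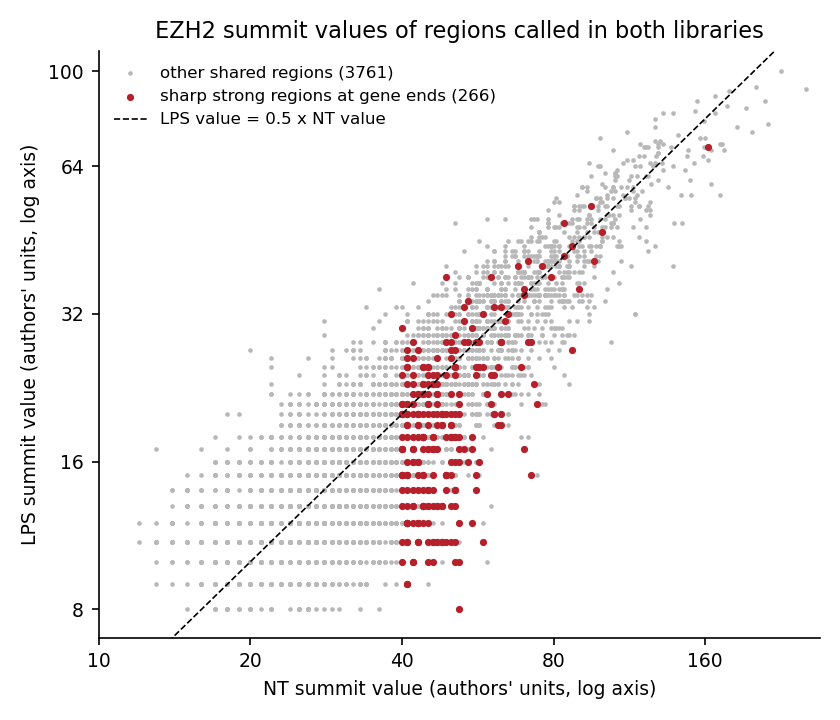
NT summit value (x axis) against LPS summit value (y axis), both in the authors' units on log axes, for the 4027 regions with an interval in both libraries. Red points are the 266 sharp strong regions at gene ends and grey points the others, and the dashed line marks an LPS value of 0.5 times the NT value. Most red points lie under the line, with a median ratio of 0.394, and the NT limit of 40 gives the red cloud its left edge.

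LPS values of the sharp regions were low for their NT value. The median ratio of LPS to NT value was 0.394 (0.375 to 0.417), against 0.481 (0.473 to 0.492) in the 885 strong regions of 2 to 5 kb at gene ends and 0.525 (0.511 to 0.538) in the 229 of 5 kb or more. The 1113 sharp regions at gene ends with an NT value under 40 had 0.5, the same as all 4027 shared regions. The 53 sharp strong regions away from gene ends had 0.421 (0.37 to 0.468), an interval that overlaps that of the members. The NT value stands in this ratio and in the rule, so the ratio of the members is a description. Regions picked for a high NT value in 1 library can give a low ratio by that choice alone, and the 2 wider sets were picked with the same limit.

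The lower ratio of the sharp regions also held among regions of like NT value up to 79. With NT values from 40 to 44 the median ratio was 0.409 in 99 sharp regions, 0.5 in 151 regions of 2 to 5 kb and 0.581 in 15 of 5 kb or more. From 45 to 49 it was 0.378 in 66 sharp regions against 0.5 and 0.574 in the 2 wider sets, and from 50 to 59 it was 0.373 in 61 against 0.491 and 0.569. From 60 to 79 it was 0.394 (0.338 to 0.484) in 31 sharp regions and 0.476 (0.462 to 0.492) in 230 regions of 2 to 5 kb, whose intervals overlap. At NT values of 80 and over, the 9 sharp regions had 0.47 (0.4 to 0.558) and the 153 regions of 2 to 5 kb had 0.467, so no difference could be seen among the strongest sites. Within the members, the ratio went little with the NT value (Spearman's rho -0.028 over 266 regions) and somewhat with width (rho 0.215). These are descriptions across regions that share both libraries. Bands of NT value do not undo the choice of regions by that value. Each value is the highest in its region, and a wider region has more room for a high LPS value. A single interval of each library was held by all members, by 87% of the regions of 2 to 5 kb and by 61.6% of those of 5 kb or more. Whether this affects the ratios was not tested.

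**Figure D2:**
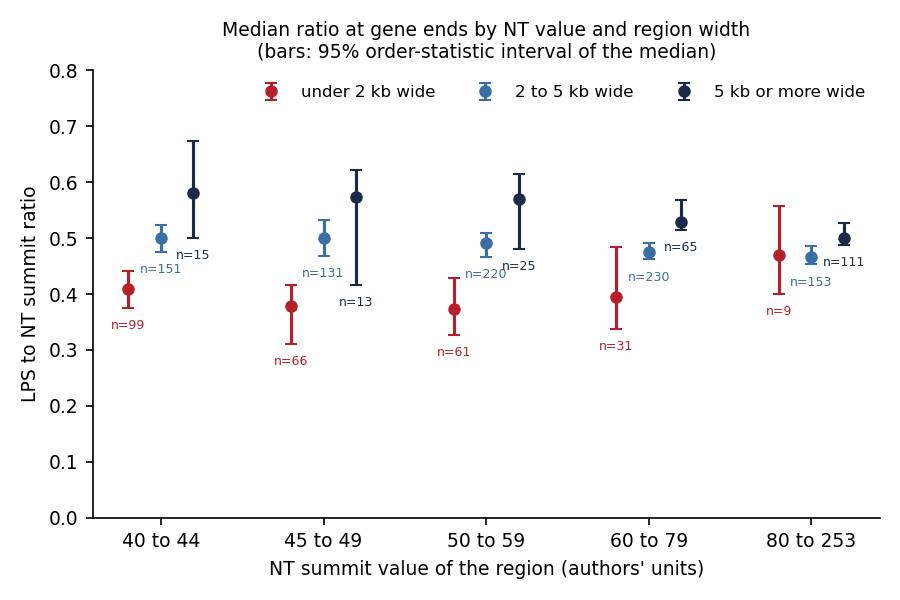
Median LPS to NT ratio of summit values (y axis) in 5 bands of NT summit value (x axis, authors' units) for strong regions at gene ends under 2 kb (red), from 2 to 5 kb (blue) and of 5 kb or more (dark blue). Bars are 95% order-statistic intervals and n is the number of regions. Red points lie under both others in the 4 bands below an NT value of 80, and in the last band red (0.47) and blue (0.467) meet.

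An NT value more than 3 times the LPS value was found at 89 of the 266 members (33.5%, 28.1 to 39.3%), with 6.98% of all shared regions as the background. An NT value of exactly 3 times the LPS value, which this count leaves out, was found at 1 member and at 46 of all shared regions. The share over 3 times was 6.33% in the regions of 2 to 5 kb, 2.18% in those of 5 kb or more, 6.47% in the sharp weak regions and 20.8% (12 to 33.5%) in the sharp strong regions away from gene ends. The lowest LPS value of a shared region was 8. Regions with a low NT value, as in the sharp weak set (12 to 39), therefore had less or no room to pass 3 times. The shares of 6.98% and 6.47% are partly set by this, and only the strong sets had the NT limit of 40 in common. A ratio at or over 0.75 was found at 2 members (0.752%), Tead1 and Paqr9, with 5.44% of all shared regions as the background and 1.13% in the regions of 2 to 5 kb. No member had a ratio over 1, as was also so in both wider sets, and 0.273% of all shared regions had one. The central 95% of members lay between 0.218 and 0.631.

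Requiring an LPS interval hides part of this spread. Of 415 sharp strong NT regions at gene ends, 266 (64.1%, 59.4 to 68.6%) had an LPS interval and 149 had none, with NT values up to 63. Of 1129 strong NT regions of 2 kb or more at gene ends, 1114 (98.7%, 97.8 to 99.2%) had one. The lowest value in the LPS list was 7, so a low ratio at an NT value near 40 may not be listed. With the missing LPS values set to 0, a lower limit, the median ratio of the sharp regions was 0.295 and that of the wider ones 0.491.

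The lowest ratio of a member was at chr14:79480876-79482393, which holds the starts of Elf1, an ETS transcription factor, and Wbp4, a splicing factor, with 52 in NT and 8 in LPS (0.154). Its summits lay 624 bp apart, so the 2 values belong to different points of the region. Srd5a3, a polyprenol reductase of protein glycosylation, had 58 and 11, and Map2k1, the kinase MEK1 that activates ERK, had 52 and 10. The Hsp40 chaperone gene Dnajb1 had 51 and 10, and Insig1, a brake on cholesterol synthesis, had 72 and 15. Zfp869, Zfat and the histone H3.3 gene H3f3b closed the 8 lowest, with 51 and 11, 46 and 10, and 55 and 12. At these 8 regions LPS values stayed at 15 or under while NT values reached 72.

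At the 8 highest ratios the LPS value was at least 26. Tead1, a transcription factor of the Hippo pathway, had 49 in NT and 38 in LPS (0.776), and Paqr9 had 40 and 30 (0.75). Plekhh1 had 42 and 28 and the lysolipid transporter gene Mfsd2a 41 and 27. The pannexin channel gene Panx2 had 50 and 32, the neuronal scaffold gene Nbea 41 and 26, and the neuregulin gene Nrg3 54 and 34. Sec62, part of the machinery that moves proteins into the endoplasmic reticulum, had 60 and 38. Of these 8 regions, those at Tead1, Paqr9, Panx2 and Nrg3 had another merged region within 300 bp, and none of the 8 with the lowest ratios had one within 2 kb.

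**Figure D3:**
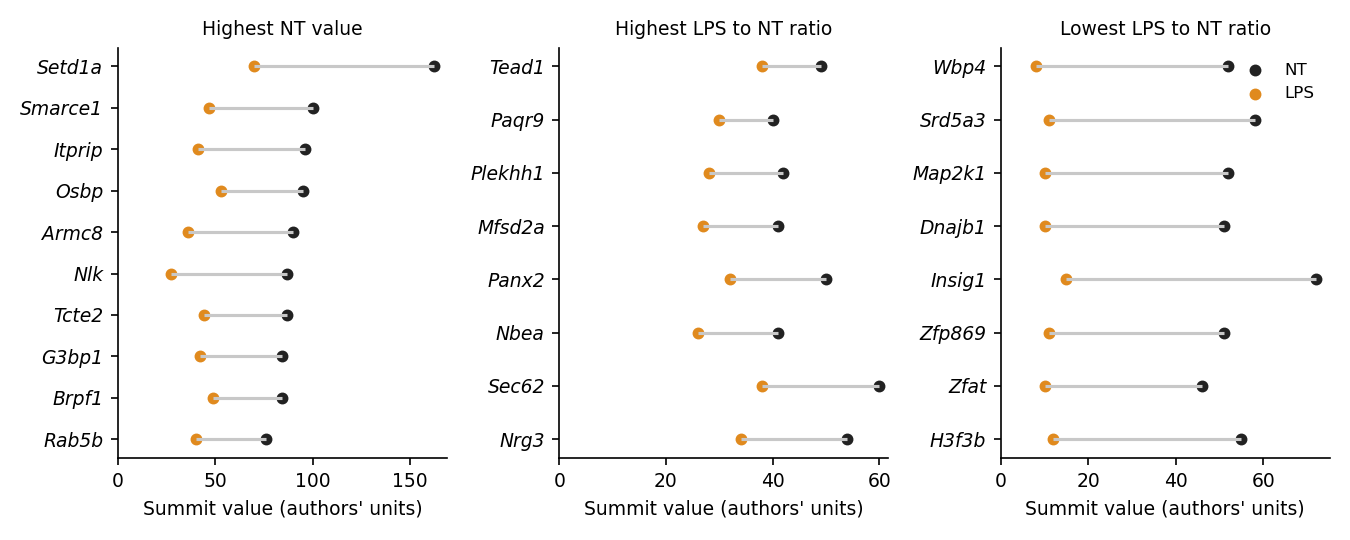
NT (black) and LPS (orange) summit values in the authors' units (x axis, from 0) for the 10 members with the highest NT value and the 8 with the highest and the 8 with the lowest ratio. Predicted genes were passed over. Each row is 1 region, named by its nearest gene, and the grey line joins its 2 libraries. LPS points lie left of NT points throughout, from 8 against 52 at Wbp4 and Elf1 to 38 against 49 at Tead1.

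Members with another merged region close by had a higher ratio than members standing alone. Of the 266, 68 (25.6%, 20.7 to 31.1%) had another merged region within 2 kb, at a median gap of 180 bp, a share like the 25.8% of all shared regions. Their median ratio was 0.466 (0.409 to 0.5), against 0.374 (0.35 to 0.4) in the 198 that stood alone, and the NT value was more than 3 times the LPS value at 16.2% and 39.4% of them. NT medians were close, at 48.5 and 46, and LPS medians were 22.5 and 18. In the regions of 2 to 5 kb the medians with and without such a neighbour were 0.471 and 0.485, with overlapping intervals. This split was chosen after the values were seen.

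Examples of both, chosen after their values were seen, follow. With a neighbour within 2 kb stood regions at Wnt4, a Wnt ligand (70 in NT and 35 in LPS), the homeobox gene En2 (42 and 23), the growth factor gene Gdf11 (45 and 23), the FGF signalling inhibitor gene Spry1 (63 and 33), the pacemaker channel gene Hcn2 (47 and 24) and the Wnt receptor gene Ryk (51 and 25). Nr2f1, a nuclear receptor of neural development (63 and 22), and Maf, a macrophage transcription factor (41 and 13), also had such a neighbour and had low ratios. Alone stood regions at Btg2, an antiproliferative gene (48 and 11), the survival gene Mcl1 (45 and 13), the chromatin protein gene Hmgb2 (48 and 13), the histone gene H2ax (47 and 13), the ferritin gene Fth1 (70 and 17) and the actin regulators Arpc1b (48 and 11) and Zyx (45 and 10). Alone also stood the deacetylase gene Hdac2 (45 and 20), the Wnt receptor gene Fzd6 (41 and 25) and the hedgehog signalling gene Smo (47 and 26). Ratios of both sizes were thus found with and without a neighbour. Kcnmb4, Farp1, Panx2, Car15, Mmp24 and Paqr9 each had 2 members side by side, so those 12 regions are not separate genes. At Paqr9 the 2 regions had 40 and 30, and 40 and 21, and at Farp1 they had 61 and 24, and 71 and 28.

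NT and LPS summits of the sharp regions lay close to each other. Their median distance was 48 bp (48 to 64), and 193 regions (72.6%, 66.9 to 77.6%) had both within 100 bp, against 48.6% in the regions of 2 to 5 kb, 51.4% in the sharp weak regions and 47.5% of all shared regions. The sharp strong regions away from gene ends had the same median of 48 bp and 81.1% (68.6 to 89.4%) within 100 bp. A narrow region leaves less room for distance: as a percentage of width the median distance was 3.65 in the members, 3.46 in the regions of 2 to 5 kb and 7.58 in the sharp weak ones. Summit positions lie on a grid, with 97.2% of NT positions a multiple of 8, which limits distances to steps of that size.

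Most of the sharp regions lay at gene starts, as did most sharp weak ones. The rule took either end of a gene, and strand was known for the nearest gene of 215 members. The nearest end was a start at 212 regions (79.7% of 266, 74.5 to 84.1%), a 3′ end at 3 (1.13%) and of unknown kind at 51. In the regions of 2 to 5 kb the shares were 67.3% for starts and 6.44% for 3′ ends, in those of 5 kb or more 54.1% and 11.4%, and over all shared regions 64.3% and 12%. The sharp weak regions had 75% (72.4 to 77.5%) and 3.41%, and their share of starts overlaps that of the members. The kind of end was unknown at 19.2% of members, 26.2% and 34.5% of the 2 wider sets and 21.6% of the sharp weak regions. It was unknown at 23.7% of all shared regions. An unknown end counts as no start, so part of the gap in starts between the sets is set by this. The 3 at 3′ ends were both regions at Car15 and the one at Fth1, whose NT summit lay 107 bp into the gene from another listed start. The NT summit was within 300 bp of a RefSeq start at 151 members (56.8%, 50.8 to 62.6%), at 45.8% of the sharp weak regions, at 28.4% of those of 2 to 5 kb and at 15.3% of those of 5 kb or more. For LPS summits the share was 54.5% of members, against 23.5% and 13.1% in the 2 wider sets. Summits of wider regions have more room to lie away from a start, so these shares depend in part on the width limit of the rule. Genes of unknown strand have no listed start, which also lowers these shares, and such genes were most frequent at the regions of 5 kb or more.

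Summits of narrow regions, strong and weak, lay closer to the start than those of the wider regions. A narrow region chosen by its midpoint leaves its summit less room away from a gene end, so part of this can follow from the rule. Midpoints of the members lay a median of 359 bp from the nearest gene end. The medians were 677 bp in the regions of 2 to 5 kb and 925 bp in those of 5 kb or more. Among the 207 members with an NT summit within 1 kb of a start, the median position was 95 bp into the gene (46 to 140), and 133 (64.3%, 57.5 to 70.5%) were on the gene's side of the start. The regions of 2 to 5 kb had a median of 270 bp (246 to 300) with 84.2% on the gene's side, and those of 5 kb or more had 386.5 bp with 83.3%. The sharp weak regions had 130.5 bp (112 to 146) with 72.8%, an interval of the median that overlaps that of the members. LPS summits had medians of 92, 322 and 360 bp in the same order. Counted in bp from the start, with minus for positions before it, the NT summit was at -236 for Setd1a, at -102 for Itprip, at -9 for Elf1 and at 438 for Plekhh1. Members without a neighbour within 2 kb had a median of 72 bp (32 to 109) and those with one had 248 bp (114 to 382).

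**Figure D4:**
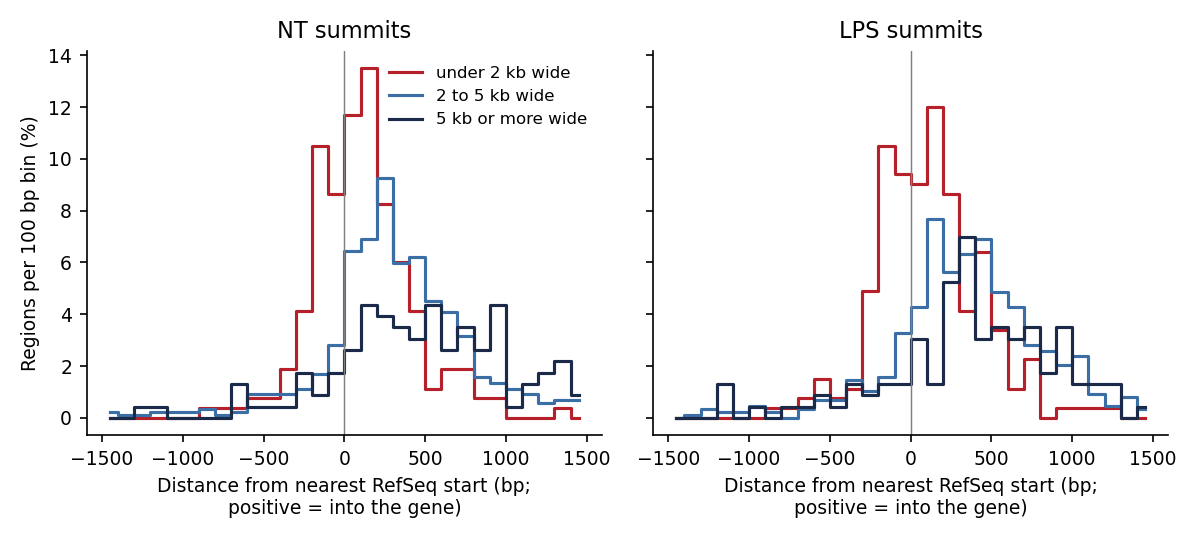
Share of regions per 100 bp bin (y axis, percent) by distance of the summit from the nearest RefSeq start (x axis, bp, positive into the gene), for NT summits (left) and LPS summits (right). Lines are strong regions at gene ends under 2 kb (red), from 2 to 5 kb (blue) and of 5 kb or more (dark blue). The red curve is narrow around the start, with a median of 95 bp in NT and 92 bp in LPS, and the others are flatter and shifted into the gene. The width limit of the red set leaves its summits less room away from the start. Shares are of all regions of a set, including those at genes without a listed start.

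Some sharp regions lay between paired genes. At 44 of the 266 (16.5%, 12.6 to 21.5%) the midpoint was in reach of 2 or more protein-coding genes, against 10.4% (8.55 to 12.6%) of the regions of 2 to 5 kb, 12.2% (8.6 to 17.1%) of those of 5 kb or more and 13.2% (11.3 to 15.3%) of the sharp weak regions. These intervals overlap or touch that of the members. In 12 members (4.51%, 2.6 to 7.72%) the starts of 2 genes facing away from each other lay inside the region, against 1.58% (0.945 to 2.64%) of the regions of 2 to 5 kb and 3.41% of the sharp weak regions, so the excess over the latter was within the intervals. The 12 included Mis12, a kinetochore gene, with Derl2, a gene of protein export from the endoplasmic reticulum (62 in NT and 25 in LPS). The promoters of these 2 genes overlap on opposite strands, so the CCAAT boxes printed for Mis12 also stand before Derl2. Others were the polyadenylation factor gene Cpsf2 with the respiratory complex I gene Ndufb1 (44 and 14), the autophagy gene Atg13 with Harbi1 (46 and 24), and the Myc activator gene Fubp1 with the chaperone gene Dnajb4 (41 and 9). A shared region cannot be given to 1 of its genes.

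Sharp regions were found in small numbers in most of the gene lists, and the developmental lists stood apart in their wide regions and not in their sharp ones. Of 21887 protein-coding genes, 307 (1.4%) had a sharp strong region in reach of an end and 1192 (5.45%) a strong region of 2 kb or more. The 35 gene lists were chosen with earlier results of these data known, and their counts are small. Of 119 homeobox genes, 2 had a sharp region (1.68%) and 63 a wide one (52.9%). En2 (42 and 23) was among those with a sharp region, which lay 156 bp from a merged region of 5 kb or more. None of 44 forkhead genes (up to 8.03%) and none of 43 Sox, Pax and T-box genes (up to 8.2%) had a sharp one, while 47.7% and 48.8% had a wide one. Of 63 Wnt, Fgf, Bmp and Gdf ligands, Wnt4 and Gdf11 had a sharp region and 22 a wide one. Of 138 potassium, calcium and sodium channel genes, 5 had a sharp region (3.62%) and 29 a wide one (21%), among them Scn8a, a neuronal sodium channel (56 and 25), and Kcng2 (51 and 27).

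Lists of genes that every cell uses had small counts of sharp and of wide regions. Over all protein-coding genes, 1.4% had a sharp region and 5.45% a wide one. Of 88 proteasome and ubiquitin-conjugating enzyme genes, 4 had a sharp region (4.55%, 1.78 to 11.1%) and 1 a wide one. They were the proteasome ATPase gene Psmc3 (62 and 19) and the ubiquitin or NEDD8 enzymes Ube2c (44 and 18), Ube2m (44 and 13) and Ube2z (40 and 20). Of 89 chaperone genes, 3 had a sharp region and 3 a wide one, and the sharp ones all stood at genes for Hsp40 proteins: Dnaja1 (50 and 22), Dnajb1 (51 and 10) and Dnajb4 (41 and 9). Of 120 splicing factor genes, 3 had a sharp region, Hnrnpl (53 and 28), Snrpb (43 and 19) and Rbm39 (41 and 12), and 1 a wide one. Of 84 ribosomal protein genes, Rps7 (48 and 19) and Rpl23 (41 and 11) had a sharp region and none a wide one. Polr2a, the largest subunit of RNA polymerase II, had 50 and 15. A region with 56 and 24 held the start of Taf9, a subunit of general factor TFIID, and also those of Rad17 and Ak6. Of 71 translation factor genes, 1 had a sharp region and 3 a wide one, and of 199 vesicle traffic genes 3 and 4. None of 53 RNA helicase, 78 mitochondrial ribosomal protein, 21 nucleoporin and 65 replication histone genes had a sharp one, and 2, 1, 1 and 1 of them had a wide one.

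Over 14 lists of cell maintenance genes, 24 of 1133 genes had a sharp region (2.12%, 1.43 to 3.13%) and 19 a wide one (1.68%). Over 5 lists of developmental and channel genes, 9 of 407 had a sharp region (2.21%, 1.17 to 4.15%) and 156 a wide one (38.3%, 33.7 to 43.1%). The sharp shares of the 2 kinds were alike and a little over the 1.4% of all genes, and their wide shares were far apart. Some genes were counted through a region nearest to another gene, as Kcnh6 at Dcaf7, Qars at Qrich1 and Rab37 at Slc9a3r1. The 22 sharp regions of the maintenance genes had a median ratio of 0.402 (0.293 to 0.44), and 21 of them stood alone. The 10 of the developmental and channel genes had 0.515 (0.32 to 0.569), close to the 0.511 of the 167 wide regions of the same genes, and 7 of them had another merged region within 2 kb. The intervals of 0.402 and 0.515 overlap. These groupings of the lists were made after the values were seen.

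**Figure D5:**
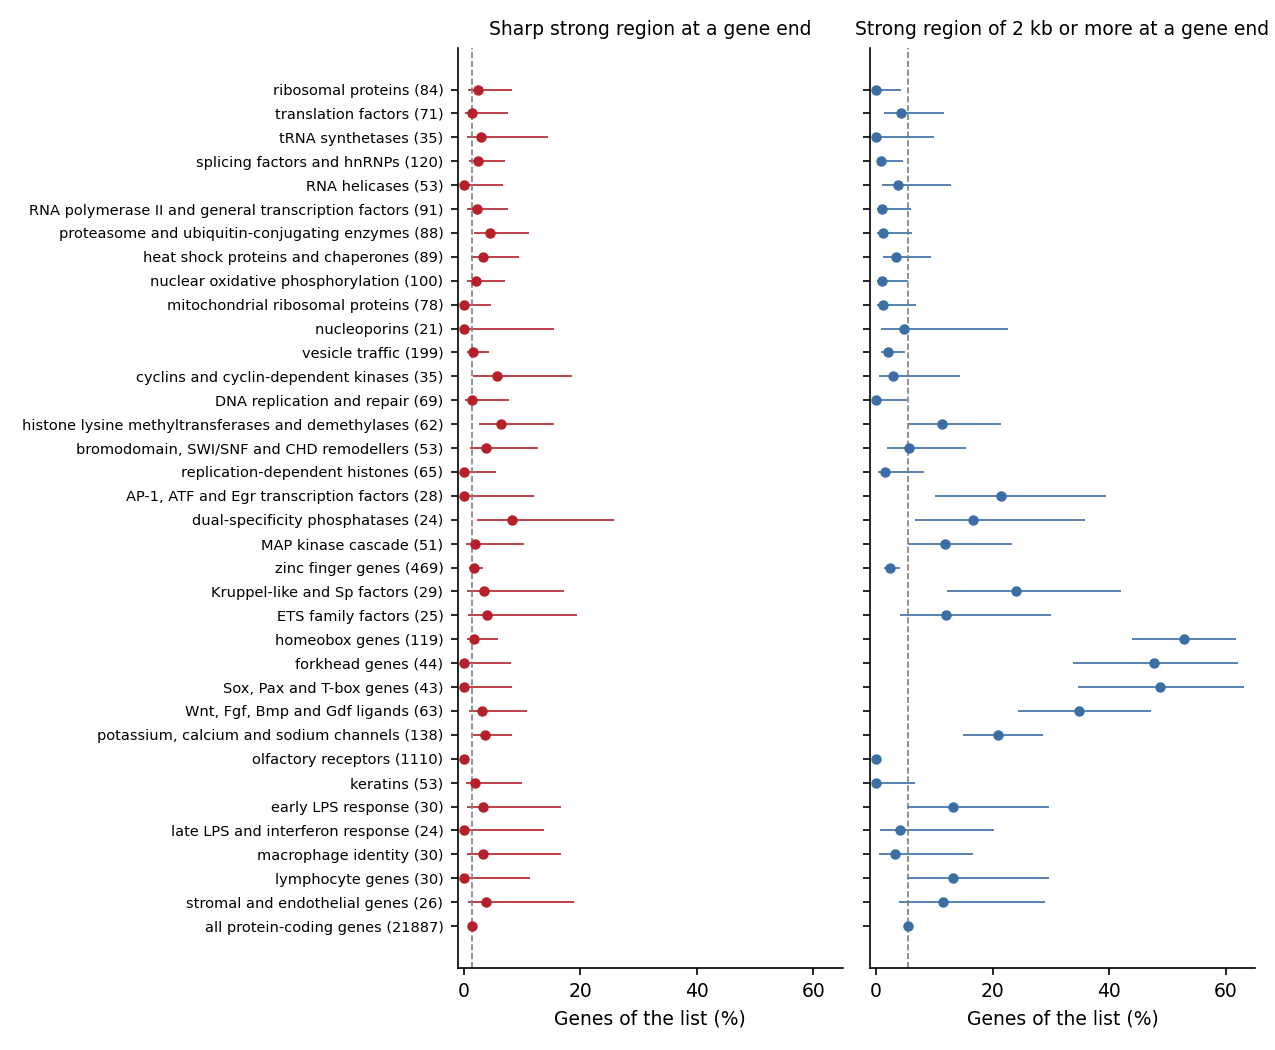
Percentage of genes of each list (rows, with the number of genes) that had a sharp strong region (left) or a strong region of 2 kb or more (right) in reach of an end, with 95% Wilson intervals. Dashed lines mark all protein-coding genes (1.4% left, 5.45% right). Sharp shares stay between 0 and 8.33% over all lists, and wide shares reach 52.9% at homeobox genes.

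Lists of chromatin and signalling genes had both kinds of region, where 1.4% of all genes had a sharp one and 5.45% a wide one. Of 62 histone lysine methyltransferase and demethylase genes, 4 had a sharp region (6.45%, 2.54 to 15.4%), all of them methyltransferases: Setd1a, Kmt5b (50 and 26), Kmt2a (46 and 18) and Kmt2d (41 and 9). A wide region stood at 7 of these genes (11.3%). The ratio was 0.22 at Kmt2d and 0.52 at Kmt5b. Of 24 dual-specificity phosphatase genes, some of which switch off MAP kinases, Dusp8 (65 and 22) and Dusp28 (50 and 19) had a sharp region (8.33%, 2.32 to 25.8%) and 4 a wide one (16.7%). Of 469 zinc finger genes, 8 had a sharp one (1.71%), led by Zfp143, an activator of gene starts (71 and 41), and Zbtb10 (55 and 30). Klf2, a brake on macrophage activation, was the only one of 29 Kruppel-like and Sp factor genes with a sharp region (52 and 12; 3.45%, 0.611 to 17.2%), and 7 had a wide one (24.1%).

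Lists of LPS response genes and of cell type markers held 1 member or none each, too few to set apart from the 1.4% of all genes. Of 30 early LPS response genes, Nfkbia, the feedback inhibitor of NF-kappaB, had a sharp region (42 and 24, ratio 0.571; 3.33% of the list, 0.591 to 16.7%), and 4 had a wide one. Of 24 late LPS and interferon response genes none did, a count that allows up to 13.8%. Irf1 stood just outside the rule, with an NT value of 39 and 13 in LPS. Maf was the only one of 30 macrophage identity genes with a member, Kdr, an endothelial receptor (40 and 10), the only one of 26 stromal and endothelial genes, and none of 30 lymphocyte genes had one. Immune genes outside these lists, chosen after their values were seen, were the class I antigen presentation genes H2-D1 (46 and 15), H2-Q6 (52 and 20) and H2-Q7 (42 and 16), the transcription factor gene Irf5 (41 and 11) and the superoxide dismutase gene Sod2 (47 and 21). The H2 genes are near-identical copies, so reads may be shared among them.

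Promoters at the sharp regions were denser in CpG than those at wider ones. A RefSeq promoter whose start lies inside the region was found for 183 members, using the start nearest the NT summit. No promoter on chromosome 18, where 8 members lie, was used. The ratio of observed to expected CpG was 0.839 at the median (0.815 to 0.872), against 0.755 (0.733 to 0.775) in 554 promoters of the 2 to 5 kb set, 0.763 in 144 of the set of 5 kb or more, 0.803 (0.779 to 0.823) in 683 of the sharp weak set and 0.567 over all 21263 promoters. GC content hardly differed among the 4 sets, with medians of 66%, 66.3%, 65% and 64%, so the gap among them was in CpG and not in GC. Over all promoters the GC median was lower, at 56.3%. Promoters with an observed to expected ratio of at least 0.75 and a GC content of at least 55% made up 126 of the 183 (68.9%, 61.8 to 75.1%), against 49.8% (45.7 to 54%), 47.9% and 52.3% in the other 3 of these sets and 29.9% of all promoters. The high CpG was not particular to the members. The 16 promoters at sharp strong regions away from gene ends had a CpG ratio of 0.871 (0.744 to 0.981) and a share of 75% (50.5 to 89.8%). The CpG ratio interval of the sharp weak set also overlaps that of the members. Within the members, the LPS to NT ratio was weakly lower where the CpG ratio was higher (rho -0.147 over 183 promoters).

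The motifs searched were mostly shared with the wider regions. The GC box GGGCGG was in 76.5% of the members' promoters, 74.9% of those of 2 to 5 kb and 46.2% of all promoters of this length. CCAAT was in 39.9% (33.1 to 47.1%), 30.3% (26.6 to 34.3%) and 38.2%. CCGGAAG, the core of sites for ETS factors, was in 10.9% (7.19 to 16.3%) of members, 5.78% (4.12 to 8.04%) of those of 2 to 5 kb, 16.4% of the sharp weak set and 11.6% of all. Among members it was in 16 of 98 promoters with a ratio at or under the median (16.3%, 10.3 to 24.9%) and in 4 of 85 over it (4.71%, 1.85 to 11.5%). GGGCGG was in 83.7% (75.1 to 89.7%) and 68.2% (57.7 to 77.2%) of these 2 sets. The intervals of both pairs overlap, which does not settle whether the shares differ.

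The exact strings searched for stimulus-responsive factors were each found in few promoters. Other forms of these sites were not searched, so the counts do not show how common the sites are. TGACGTCA, bound by CREB and ATF factors, was in 3.83% of members and 2.23% of all promoters, TGANTCA, bound by AP-1, in 2.73% and 6.99%, and GGGANTTCC, a form of the NF-kappaB site, in 2.19% and 1.84%. CACGTG, bound by Myc and USF, was in 9.84% and 7.84%, AAGATGGC, bound by YY1, in 2.73% and 3.05%, and TATAAA in 7.65% and 12.6%. GCATGCGC, the core of the NRF1 site, was in 2.73% and 3.52%, ACTACAA, from the site of ZNF143, in 2.19% and 3.6%, and the BANP palindrome in 2.73% and 0.673%. CTCTTTCC was in 1.09% and 3.02%, GAGAGAGA in 2.73% and 3.37%, and TGACGTNA, which takes in TGACGTCA, in 5.46% and 3.45%. All were searched on both strands.

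The regions on both sides of the limits of the rule had like ratios. The median was 0.415 (0.366 to 0.476) in the 62 members with NT values from 40 to 42 and 0.432 in the 77 otherwise alike regions from 37 to 39. It was 0.463 in the 52 members up to 200 bp under the width limit and 0.455 in the 76 regions up to 200 bp over it, so the limit of 2000 bp marks no step. Just inside the NT limit stood Kcnmb4 (40 and 24), Ube2z (40 and 20) and Evl (40 and 14), and just outside it Nhlh1 (39 and 21), Irf1 and Rap1gap2 (39 and 24). Just inside the width limit stood Bcr (1997 bp, 65 and 32), Espn (1988 bp, 40 and 17) and Scara3 (1987 bp, 43 and 18), and just outside it Ptger3 (2001 bp, 61 and 31), Slain1 (2003 bp, 40 and 19) and Zcchc3 (2003 bp, 53 and 17).

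The members were like other shared regions in the gap to the nearest region and in gene length, but fewer had a broad region near. The nearest other merged region was at a median of 25684.5 bp, against 23590 bp for all shared regions and 39722 bp for the sharp weak ones. An EZH2 region of 5 kb or more lay within 100 kb of 21 members (7.89%, 5.22 to 11.8%), against 14.1% (13.1 to 15.2%) of all shared regions. The share was 8.81% in the regions of 2 to 5 kb, 8.27% in the sharp weak ones and 24% in the regions of 5 kb or more. Their nearest genes had a median length of 27342 bp, against 26906 bp for all shared regions and 8756 bp at the regions of 5 kb or more. No member lay on the X or Y chromosome, where 43 of the 4027 shared regions lay.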

How the data were processed

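The deposited track file gave intervals and summits of the NT and LPS EZH2 libraries and a list of merged regions, each in BED form. BWA, SICER and mm10 are named, per the submitters' processing notes, without versions or roles. The score of each summit was deposited by the authors as a whole number, and its scaling, use of the input and duplicate removal are not given in the sources used here. Positions deposited by the authors were turned from 0-based into 1-based. Other values are computed here with Python 3.11.15, pandas 2.3.3, numpy 2.4.6 and SciPy 1.17.1, and were tested on simulated regions. The highest summit value inside a region stands for a library, and overlap means at least 1 bp. Gene ends came from a RefSeq table of GRCm38.p6 with 21887 protein-coding genes, and strand, for 17492 of them, from the RefSeq promoter table. No column of values was left without a sample.

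Members and gene lists were chosen with earlier results of these data known. Named regions were the 10 highest NT values, the 8 highest and 8 lowest ratios, up to 3 genes of each list and 3 regions on each side of both limits. Predicted genes were passed over, and the text says where a gene outside the rule was picked from its values. Alternatives changed the window, width, NT limit, gene end and list length.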

Additional observations from a re-analysis of the deposited data

How the results depend on the processing

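No paired analysis was possible because NT and LPS had 1 EZH2 library each. Of 90 values recomputed under 10 alternatives, 64 stayed close and 26 moved by more than their interval (or, for counts, by over 1.5 times). Under all of them, and under an 11th added after the data were seen, the sharp regions had a lower median ratio than the wider strong ones. The alternatives choose overlapping regions by NT value, width and position from the same 2 libraries, so they are not independent checks. The cause of the moves was not tested, except that other limits take in other regions by construction. With a width under 1500 bp there were 127 regions, with a median ratio of 0.367, 40.2% with an NT value more than 3 times the LPS value (low ratios), a CpG ratio of 0.873 and 0.681% of genes. Under 3000 bp these were 651, 0.439, 19%, 0.792 and 3.24%, with an LPS median of 22. An NT limit of 30 gave 681 regions, a median ratio of 0.419, 21.3% low ratios, an LPS median of 16 and 3.5% of genes. A limit of 50 gave 101 regions, an LPS median of 23, 21.8% with 2 or more genes in reach, 0.567% of genes, a CpG ratio of 0.874 and 0% at or over 0.75. A 1 kb window gave 1.17% of genes, and a 5 kb window 21.6% with 2 or more genes in reach. With gene starts only, 10.8% had 2 or more genes and 0% a ratio at or over 0.75. The added alternative, no other merged region within 2 kb, gave a median ratio of 0.374, 39.4% low and 0% high ratios, and 1.11% of genes. Cutting the NT list to the length of the LPS list could change nothing, since the cut fell at an NT value of 27, under the limit of 40. Its values are among the 64 that stayed close, and this outcome was fixed in advance. Read depth is unknown, so its limit on these values cannot be stated.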
